A study of Mus musculus with 21 samples.

Results

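Transcripts of 10 heat shock proteins and chaperones were followed in the mouse ventral pons after the right facial nerve had been cut. The genes were Hspb1, Hspb8, Cryab, Hspa1a, Hspa1b, Dnajb1, Hsph1, Bag3, Hsp90aa1 and Hspa5. They were taken by symbol from a table of 45664 gene rows, and all 10 were among the 22294 genes tested. Each of the 7 groups held 3 libraries of messenger RNA. All mice were CX3CR1GFP/wt animals on C57BL/6, with a fluorescent protein gene at 1 copy of a microglial receptor locus, and this held for the control group too. The nerve was transected at the stylomastoid foramen at 8 weeks of age. The lesion (right) and contralateral (left) pons were taken 7, 14 and 30 days later, at 9, 10 and 12 weeks of age. The day 0 group was left pons of 8-week-old mice that had no operation. The tissue block held the facial nucleus, where the cut motor neurons lie, together with parts of neighbouring reticular and trigeminal nuclei.

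Chaperones bind unfolded proteins and help them to fold, hold them in solution or pass them on for degradation. Small heat shock proteins hold unfolding proteins without using ATP. HSP70 proteins fold them in cycles of ATP hydrolysis that J proteins start and exchange factors end, and HSP90 acts on late folding intermediates such as kinases and hormone receptors. Heat shock factor 1 switches on many of these genes through heat shock elements, which are repeats of the unit nGAAn, whereas the endoplasmic reticulum has its own chaperones and its own stress response.

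Hspb1 was the member that rose on the lesion side in the main test, 2-fold at day 7 and 1.8-fold at day 14. Hspb8 passed there at day 7 only with a block for the replicate number or with no filter on low counts. The inducible HSP70 genes Hspa1a and Hspa1b did not differ by side in the test but rose at day 30 over day 0 on both sides, Hspa1b by 3.66-fold on the lesion side and 3.1-fold on the contralateral side. Cryab fell in every operated group on both sides, to between 0.629 and 0.789 of its day 0 level. Hsph1 and Hsp90aa1 passed the test in none of the comparisons.

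Summed counts ran from 35874913 to 41448945 at day 0 and from 17358868 to 29827291 in the other libraries. The lesion was always on the right. Day cannot be told apart from age, nor day 0 from its greater depth, while the depths of days 7, 14 and 30 overlapped. The lane code in the column names also changed with the day except between day 0 and day 7. Those days share a code and also some index tags, so the codes may belong to different runs. Day 0 and day 7 can therefore not be taken as sequenced together. Whether libraries of a group came from separate mice is not given, so p-values measure the spread between these libraries. Choroid plexus transcripts (5 markers) summed to 4550 CPM (normalised counts scaled to a common library size) in day 7 lesion replicate 3 and 941 CPM in day 14 contralateral replicate 3, and to between 11.2 and 383 CPM elsewhere. Hindbrain Hox markers summed to 15.8 to 29.8 CPM and forebrain markers to 1.32 to 5.01 CPM. At day 30 the side of each library follows the sample descriptions, which are opposite to the column names, and the direction of every day 30 lesion result rests on it.

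Per kilobase of gene length, the members spanned a wide range in the unoperated pons. Cryab led with 286 ± 13 CPM per kilobase (SD, n = 3), followed by Hspa5 with 86.1 ± 2.3, Hsp90aa1 with 55.7 ± 3.4 and Hsph1 with 51.1 ± 1.8. Hspb8 stood at 36.4 ± 0.73, Dnajb1 at 28.2 ± 0.56 and Bag3 at 19.8 ± 0.2 on the same scale. Hspb1 had 5.66 ± 0.96 CPM per kilobase, and the inducible Hspa1a and Hspa1b were lowest with 0.586 ± 0.08 and 0.431 ± 0.13. These levels depend on how reads with several matches were counted, which is not given in the sources used here and bears on Hspb1, Hspa1a, Hspa1b and Hsp90aa1. With near-identical rows merged, Hsp90aa1 was at 284 to 318 CPM at day 0 in place of 204 to 231 CPM. The transcripts behind the side and day differences of Hspb1, Hspa1a and Hspa1b were the 3 least abundant of the 10, with 105 to 304, 27 to 120 and 11 to 165 reads per library.

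Hspb1 encodes the small heat shock protein known as HSP25 in mice, which binds actin and unfolding proteins and is known from injured sensory and motor neurons. The gene lies on the forward strand at chr5:135887919-135889563 (GRCm38). Its 250 bases before the start (RefSeq, GRCm38.p6, chr5:135887669-135887918, forward strand) are shown because they hold 2 matches to the core of a heat shock element, GAANNTTC, in capitals, at 117 and 97 bases before the start.
Hspb1: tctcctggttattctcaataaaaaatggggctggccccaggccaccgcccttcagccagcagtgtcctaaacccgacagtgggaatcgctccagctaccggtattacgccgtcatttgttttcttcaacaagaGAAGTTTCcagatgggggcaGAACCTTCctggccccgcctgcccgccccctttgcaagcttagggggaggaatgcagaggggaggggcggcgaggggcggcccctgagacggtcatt
The motif reads the same on both strands and was present in 7.86% of all 32851 promoter windows of 300 bases, so a match is a description of the letters and not a measured binding site. A promoter window was found for 8 of the 10 genes, and Cryab and Hsp90aa1 had no entry. Of the 8 genes, 6 held GAANNTTC or the outward form TTCNNGAA (15.1% of all windows), namely Hspb1, Hspb8, Hspa1a, Hspa1b, Hsph1 and Bag3. Hsph1 alone among them held 3 units in a row, GAANNTTCNNGAA on either strand, which 0.603% of windows held.

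Hspb1 stood at 9.06, 12.4 and 11.5 CPM in the lesion pons at day 7 (replicates 1, 2 and 3) and at 5.49, 5.73 and 5.30 CPM in the contralateral pons. Every lesion library was above every contralateral one, and the day 0 libraries, with 5.63, 6.91 and 4.95 CPM, overlapped the contralateral range. The lesion-side level was 2-fold higher (log2 difference 1.00 ± 0.14 SE, adjusted p = 2.9e-05, edgeR's quasi-likelihood test with Benjamini-Hochberg adjustment over all genes, as for every adjusted p below). At day 14 the lesion libraries had 10.4, 10.5 and 11.4 CPM and the contralateral ones 5.14, 6.23 and 6.58 CPM. The groups were again apart, with a difference of 0.85 ± 0.13 (1.8-fold, adjusted p = 0.00019).

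At day 30 Hspb1 was at 9.02, 8.77 and 9.38 CPM on the lesion side and at 8.43, 6.25 and 7.09 CPM on the contralateral side. The lesion libraries were still all above the contralateral ones, by a smaller margin, and the difference of 0.32 ± 0.13 did not pass the test (adjusted p = 0.54). The lesion effect at day 30 was smaller than at day 7 by -0.69 ± 0.19 on the log2 scale, but this difference between days did not pass adjustment (unadjusted p = 0.0014, adjusted p = 0.49). Between day 30 and day 14 it was -0.53 ± 0.19 (adjusted p = 0.2), and between day 14 and day 7 -0.16 ± 0.19 (adjusted p = 0.91).

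Against day 0, Hspb1 rose on the lesion side at all 3 times, by 0.92 ± 0.13, 0.88 ± 0.13 and 0.63 ± 0.13 (adjusted p = 1.2e-05, 1.5e-05 and 0.00075). The contralateral differences were -0.08 ± 0.14, 0.04 ± 0.14 and 0.32 ± 0.13 (adjusted p = 0.79, 0.9 and 0.11). The last passed the test without day 0 replicate 2 (0.46, adjusted p = 0.028). All comparisons with day 0 share the same 3 day 0 libraries, so they are not independent of each other. In the order of group means, the day 7 and day 14 lesion groups overlapped each other, the day 30 lesion group lay below day 14 and above its contralateral side with no overlap, and neighbours among the other 4 groups overlapped.

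With each library left out in turn, the lesion difference of Hspb1 ran from 0.91 to 1.12 at day 7 (highest adjusted p = 0.00061) and from 0.75 to 0.92 at day 14 (highest 0.0035). Of the 50-base stretches of the Hspb1 transcripts, 50.1% also occur in another annotated gene, mainly Hsp25-ps1 and Gm9817. Those rows held 147 and 21 counts over all libraries against 3946 for Hspb1, and with the rows merged the differences were 1.03, 0.85 and 0.31 at days 7, 14 and 30 (adjusted p = 2.5e-05, 0.00021 and 0.56).

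Microglial markers moved with the same side: the 5 markers summed to 172 to 212 CPM in the lesion libraries and 107 to 135 CPM in the contralateral ones, and 5, 4 and 3 of them rose at days 7, 14 and 30. Of 7 motor neuron markers, 0, 3 and 1 fell and 0, 1 and 0 rose at the same times. Over all genes tested, 1.65%, 3.88% and 1.16% were called in either direction by side at these times. The sums of the motor neuron markers overlapped by side at day 7. They were 239 to 280 against 308 to 355 CPM on the contralateral side at day 14, and 230 to 279 against 304 to 458 CPM at day 30. None of the 5 astrocyte markers differed by side in the test. Their sums were apart at day 14 (1730 to 1990 CPM on the lesion side, 1560 to 1570 CPM on the other) and overlapped at days 7 and 30. In bulk tissue a change in the number of cells of a type and a change in RNA per cell cannot be told apart, and the part of these cell types in the Hspb1 result was not tested. The 3 genes whose log2 CPM followed Hspb1 most closely over the 21 libraries were the protease gene Adam8, the annexin gene Anxa2 and Sprr1a, a small proline-rich protein of regenerating neurons, with Pearson r of 0.92 each among 13511 genes compared. These libraries share sides and days, so r describes the pattern and carries no p.

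**Figure D1:**
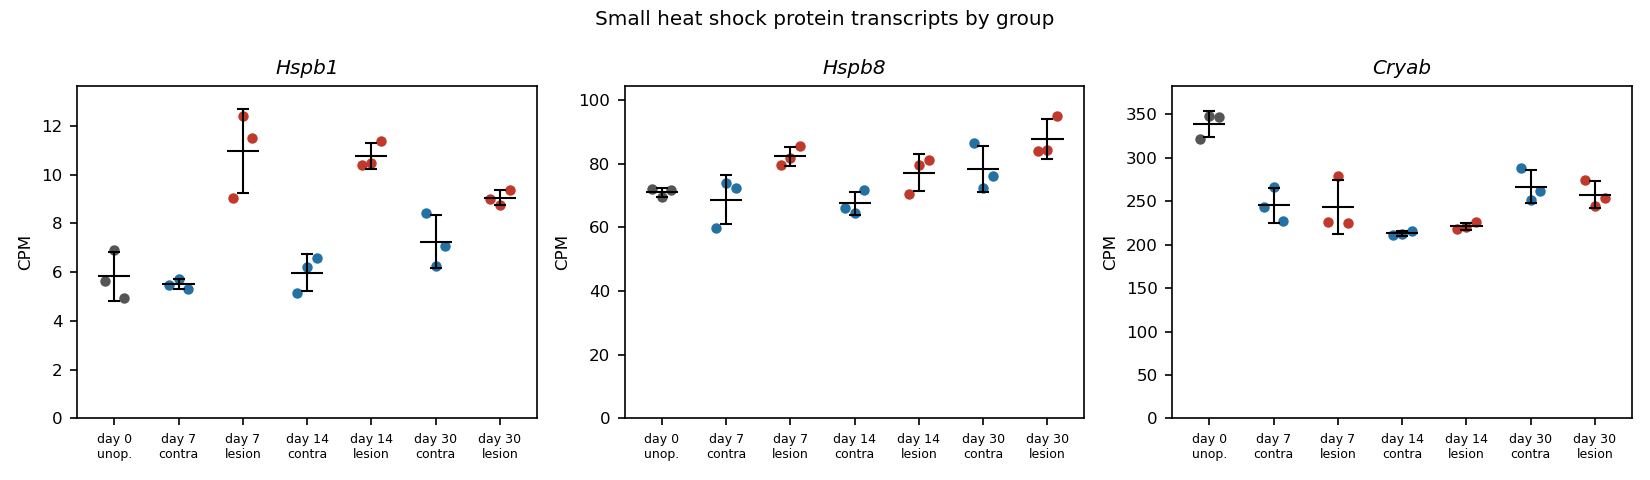
Expression of the 3 small heat shock protein genes in CPM (y axis, linear from 0) by group (x axis); points are libraries, horizontal lines means and bars SD of 3 libraries. Hspb1 is highest in the 9 lesion libraries (8.77 to 12.4 CPM), Hspb8 overlaps between most groups, and Cryab is highest in the 3 day 0 libraries (322 to 348 CPM).

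Hspb8 encodes a small heat shock protein that works with BAG3 in the autophagic removal of misfolded proteins. The gene lies on the reverse strand at chr5:116408491-116422864. Its core match starts at base 3 of the transcript and is in capitals in this stretch of 30 bases around the start (chr5:116422844-116422873, reverse strand, GRCm38.p6), shown because the matched 8 letters are those of the upstream match in Hspb1.
Hspb8: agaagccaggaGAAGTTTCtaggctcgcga
Hspb8 stood at 79.6, 81.8 and 85.5 CPM on the lesion side at day 7 and at 59.8, 73.9 and 72.3 CPM on the other side. The lesion libraries were all above the contralateral ones, but the difference of 0.26 ± 0.08 did not pass the test (adjusted p = 0.11). With a block for the replicate number it did (0.26, adjusted p = 0.032), and with no filter on low counts too (0.27, adjusted p = 0.011).

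At day 14 Hspb8 was at 70.4, 79.7 and 81.1 CPM against 66.2, 64.6 and 71.7 CPM, and the sides overlapped through lesion replicate 1. The difference was 0.19 ± 0.08 (adjusted p = 0.17), and 0.25 without that library (adjusted p = 0.048). At day 30 the lesion libraries, with 84.1, 84.2 and 94.9 CPM, overlapped the contralateral ones, with 86.4, 72.4 and 76.2 CPM (0.16 ± 0.08, adjusted p = 0.63). Against the day 0 libraries (72.1, 69.4 and 71.6 CPM), Hspb8 rose on the lesion side at day 30 by 0.30 ± 0.08 (adjusted p = 0.0044). On the contralateral side at day 30 it stood 0.14 ± 0.08 from day 0 (adjusted p = 0.23). At day 7 the lesion difference from day 0 was 0.21 ± 0.08 (adjusted p = 0.066), and 3 of the alternatives moved it past the threshold (adjusted p = 0.023 with no filter, 0.049 with edgeR's own filter and 0.037 with only the groups compared).

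Cryab encodes alpha B-crystallin, a small heat shock protein of the lens, muscle and glia that is abundant in oligodendrocytes. It lies at chr9:50751325-50756636 on the forward strand, and its exons overlap those of Hspb2 on the other strand, so reads of the pair could be shared if strand was not used in counting. The 3 day 0 libraries had 322, 348 and 347 CPM. At day 7 the lesion libraries had 226, 279 and 225 CPM and the contralateral ones 243, 267 and 227 CPM, and the sides overlapped while all 6 lay below day 0. At day 14 the values were 218, 220 and 226 CPM on the lesion side and 211, 212 and 216 CPM on the other, the 2 lowest group means of the series. At day 30 they were 275, 244 and 254 CPM and 288, 251 and 262 CPM, still below every day 0 library.

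Cryab fell against day 0 by 0.48 ± 0.07 on the lesion side and 0.46 ± 0.07 on the contralateral side at day 7 (adjusted p = 3.6e-05 and 6.1e-05). At day 14 it fell by 0.62 ± 0.07 and 0.67 ± 0.07 (7.6e-07 and 2.5e-07), and at day 30 by 0.40 ± 0.07 and 0.34 ± 0.07 (0.00022 and 0.0014). Lesion and contralateral sides differed by -0.02 ± 0.07, 0.05 ± 0.07 and -0.05 ± 0.07 at days 7, 14 and 30 (adjusted p = 1, 0.76 and 0.93). Each of the 6 differences from day 0 passed the test with any 1 library of its groups left out, the highest adjusted p being 0.02 on the contralateral side at day 30.

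The 5 oligodendrocyte markers moved in the same direction as Cryab: they summed to between 29900 and 31800 CPM at day 0 and between 22900 and 29600 CPM in the operated groups. Against day 0, 4 and 2 of the 5 fell on the lesion and contralateral sides at day 7, 3 and 3 at day 14 and 2 and 2 at day 30, and none rose. Mag, a myelin adhesion protein, fell in all 6 groups, by 0.27 to 0.50 on the log2 scale. Other markers also set day 0 apart, which touches every comparison with it. The 5 endothelial and mural markers summed to 502 to 555 CPM at day 0 and 418 to 494 CPM in the operated groups, where 2 or 3 of them fell and none rose. The 4 neuron markers summed to 3860 to 3940 CPM at day 0 and 4670 to 5370 CPM in the operated groups, where 1 or 2 rose and none fell. Over all genes tested, 3.66% to 9.69% fell and 6.84% to 12.7% rose in these 6 comparisons. The part of these cell types in the Cryab result and the other differences from day 0 was not tested.

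Hspa1a and Hspa1b encode the stress-inducible cytosolic HSP70, in a pair of nearly identical genes that neighbour each other on the reverse strand of chromosome 17 (chr17:34969190-34972156 and chr17:34956436-34959238). The exons of Hspa1a overlap Gm20481 on the other strand. The 250 bases before each start (GRCm38.p6, reverse strand, chr17:34972157-34972406 for Hspa1a and chr17:34959239-34959488 for Hspa1b) are shown because the genes moved together and can hardly be told apart by sequence. The capitals mark GAANNTTC, at 104 bases before the start in both.
Hspa1a: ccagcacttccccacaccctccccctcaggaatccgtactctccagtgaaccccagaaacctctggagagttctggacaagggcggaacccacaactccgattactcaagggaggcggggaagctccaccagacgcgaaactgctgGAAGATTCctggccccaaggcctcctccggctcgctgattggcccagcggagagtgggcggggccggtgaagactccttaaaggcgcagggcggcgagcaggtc
Hspa1b: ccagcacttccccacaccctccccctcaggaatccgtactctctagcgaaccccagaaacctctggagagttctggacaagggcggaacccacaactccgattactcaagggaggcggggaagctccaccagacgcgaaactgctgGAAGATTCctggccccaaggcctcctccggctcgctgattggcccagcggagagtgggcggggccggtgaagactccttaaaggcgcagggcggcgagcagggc
Over the windows of 300 bases the pair was 98.7% identical, with 4 differences: C44T, T47C, T249G and C276T. Each is given as the Hspa1a base, the position from the first base of the window, and the Hspa1b base. The first 3 lie before the start, C276T lies after it and beyond the 250 bases shown, and none is in the motif. Within the transcripts, 66.3% of the 50-base stretches of Hspa1a and 62.3% of those of Hspa1b also occur in another gene. The split of reads between them therefore depends on how reads with several matches were counted, which is not given in the sources used here.

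Hspa1b was at 5.56, 2.86 and 4.72 CPM on the lesion side and at 4.82, 2.36 and 3.95 CPM on the contralateral side at day 30. The day 0 libraries had 1.41, 0.796 and 1.42 CPM, and the 12 libraries of days 7 and 14 lay between 0.557 and 1.39 CPM. All 6 libraries of day 30 were above all 15 others, and replicate 2 was the lowest on each side. Against day 0 Hspa1b rose by 1.87 ± 0.26 and 1.63 ± 0.27 on the lesion and contralateral sides (3.66-fold and 3.1-fold, adjusted p = 8.5e-06 and 9.1e-05).

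Hspa1a followed with smaller changes. At day 30 it had 4.04, 2.77 and 4.33 CPM on the lesion side and 5.11, 2.98 and 2.63 CPM on the other, against 1.52, 1.99 and 1.70 CPM at day 0. The libraries of day 30 were above those of day 0 on both sides, but contralateral replicate 3 lay just under day 14 contralateral replicate 3 (2.65 CPM). The rise over day 0 was 1.09 ± 0.23 and 1.04 ± 0.23 (2.13-fold and 2.05-fold, adjusted p = 0.00085 and 0.0021). Without contralateral replicate 1, the highest of its group, the contralateral rise was 0.68 and missed the threshold (adjusted p = 0.057).

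A difference between the sides passed the test in neither gene. The Hspa1a differences were -0.31 ± 0.26, -0.48 ± 0.26 and 0.05 ± 0.23 at days 7, 14 and 30 (adjusted p = 0.98, 0.33 and 0.98). Those of Hspa1b were 0.44 ± 0.34, -0.36 ± 0.34 and 0.24 ± 0.25 (adjusted p = 0.96, 0.62 and 0.9). The standard errors of this low-count pair were wider than those of the other members, and a p that misses the threshold does not show that the sides were alike.

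Comparisons of day 30 with the earlier days on the same side, which are not tied to the day 0 libraries, were added after the data had been seen and share the day 30 libraries with those above. Hspa1b rose on the lesion side by 1.75 ± 0.28 from day 7 and by 2.28 ± 0.29 from day 14 (adjusted p = 0.00085 and 6e-05), and on the contralateral side by 1.95 ± 0.30 and 1.67 ± 0.29 (0.0072 and 0.015). Hspa1a rose on the lesion side by 1.06 ± 0.24 and 1.28 ± 0.24 (0.013 and 0.0049), whereas its contralateral differences of 0.69 ± 0.24 and 0.75 ± 0.24 did not pass (0.29 and 0.16). The lesion rise of Hspa1a from day 7 missed the threshold without day 7 lesion replicate 1 or 3 or day 30 lesion replicate 1 or 3 (adjusted p = 0.055 to 0.069). The contralateral rise of Hspa1b from day 7 missed it without day 30 contralateral replicate 3 (0.052), and that from day 14 without any 1 of the 6 libraries except day 30 contralateral replicate 2 (0.056 to 0.099).

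With the counts of the pair summed, which removes the question of how reads were split between them, the level was 9.60, 5.63 and 9.04 CPM on the lesion side and 9.92, 5.35 and 6.58 CPM on the contralateral side at day 30. It was 2.93, 2.79 and 3.12 CPM at day 0. How reads with several matches were counted still bears on this summed level. The summed pair rose over day 0 by 1.46 on the lesion side and 1.31 on the contralateral side (adjusted p = 8.2e-06 and 5.4e-05). From day 7 it rose by 1.39 and 1.20 on the lesion and contralateral sides (0.00053 and 0.022), and from day 14 by 1.74 and 1.15 (5.2e-05 and 0.026).

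The transcription factor gene Fos, an immediate early gene that responds within minutes to activity or handling, was also highest at day 30, with 24.5, 13.9 and 18.6 CPM on the lesion side and 20.6, 13.4 and 18.4 CPM on the other. The 15 libraries of the other days lay between 8.38 and 14.4 CPM, so replicate 2 of each side at day 30 overlapped them. Fos rose over day 0 by 0.68 ± 0.22 on the lesion side (adjusted p = 0.037) and stood at 0.55 ± 0.22 on the contralateral side (adjusted p = 0.11). Of the 5 immediate early markers, Fos and Egr1 rose on the lesion side (Egr1 by 0.62 ± 0.19, adjusted p = 0.025), and Arc fell on the contralateral side (-0.62 ± 0.18, adjusted p = 0.026). Over all genes tested, 12.7% rose on the lesion side and 6.81% fell on the contralateral side. The 5 markers summed to 85.0 to 116 CPM at day 30 and 83.4 to 99.1 CPM at day 0. The part of tissue handling in the day 30 results was not tested, and day 30 cannot be told apart from age or lane.

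Dnajb1 encodes an HSP40-type J protein that delivers substrates to HSP70 and is itself a heat shock gene. At day 30 it had 73.5, 73.4 and 80.7 CPM on the lesion side and 78.1, 72.2 and 79.0 CPM on the contralateral side, against 64.6, 62.3 and 64.3 CPM at day 0. All 6 libraries of day 30 were above the other 15, which ran from 53.4 to 68.7 CPM. The rise over day 0 was 0.25 ± 0.08 and 0.26 ± 0.08 (adjusted p = 0.018 on each side). It missed the threshold on the lesion side without day 0 replicate 2 (0.06) or lesion replicate 3 (0.11), and on the contralateral side without day 0 replicate 2 (0.057) or contralateral replicate 1 (0.066) or 3 (0.067). From day 14 to day 30 it rose by 0.39 ± 0.08 on the contralateral side (adjusted p = 0.038), a call lost without any 1 of the 6 libraries (0.056 to 0.16). On the lesion side the difference was 0.29 ± 0.08 and just missed the threshold (adjusted p = 0.051). It passed with DESeq2 (0.027), with no filter (0.0059), with edgeR's own filter (0.048) and without day 14 lesion replicate 3 (0.031). The sides differed by 0.09 ± 0.08, 0.09 ± 0.08 and -0.01 ± 0.08 at days 7, 14 and 30 (adjusted p = 0.98, 0.59 and 0.99).

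Bag3 encodes a cochaperone that exchanges the nucleotide of HSP70 and links it to HSPB8 and to autophagy. The day 0 libraries had 51.6, 50.8 and 51.8 CPM, close to each other. At day 14 the contralateral libraries had 42.7, 39.0 and 41.3 CPM, and at day 30 the lesion libraries had 43.4, 39.4 and 42.7 CPM. Both groups lay wholly below day 0, and Bag3 fell there by 0.33 ± 0.09 and 0.30 ± 0.09 (adjusted p = 0.011 and 0.016). Each call was lost without replicate 2 of its group (adjusted p = 0.067 and 0.081). In the other 4 operated groups the differences from day 0 were -0.11 to -0.23 (adjusted p = 0.098 to 0.49, and 0.033 in place of 0.098 on the contralateral side at day 7 with no filter). On the lesion side at day 14 the call was gained without replicate 2, which had 51.7 CPM (-0.30, adjusted p = 0.02). By side, Bag3 differed by 0.12, 0.14 and -0.14 at days 7, 14 and 30, each ± 0.09 and none past the threshold (adjusted p = 0.94, 0.43 and 0.8).

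Hsph1 encodes HSP105, a large relative of HSP70 that acts as its exchange factor. It was at 330 to 386 CPM in all 21 libraries, with differences of -0.06 ± 0.06, -0.04 ± 0.06 and -0.03 ± 0.06 by side and of -0.02 to -0.11 from day 0 (adjusted p = 0.28 to 0.89). The cytosolic HSP90 gene Hsp90aa1, whose product is the more stress-responsive of its pair, was at 193 to 234 CPM. Its differences by side were -0.01, 0.02 and 0.02, each ± 0.06, and those from day 0 ran from -0.10 to 0.05 (adjusted p = 0.3 to 0.9). Of its 50-base stretches 47.5% occur in another gene, and the rows Gm12346 and Gm5844 held 32852 and 13234 counts against 110253 for Hsp90aa1. With those rows merged no difference passed the test either.

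Hspa5 encodes BiP, the HSP70 of the endoplasmic reticulum and the standard readout of the unfolded protein response there. The gene is on the forward strand at chr2:34771970-34777547, and 30 bases of its RefSeq promoter window (chr2:34772020-34772049, forward strand, GRCm38.p6) are shown. They run from -70 to -41 relative to the RefSeq start, which lies downstream of the first base of the interval just given, and so fall inside that interval. They hold a match in capitals to the endoplasmic reticulum stress element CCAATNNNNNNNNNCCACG, which 0.119% of all windows held on either strand.
Hspa5: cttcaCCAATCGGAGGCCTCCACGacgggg
Hspa5 stood at 373, 365 and 354 CPM at day 0. At day 14 it was at 294, 298 and 301 CPM on the lesion side and 295, 270 and 298 CPM on the contralateral side, below every day 0 library. It fell there by 0.29 ± 0.07 and 0.34 ± 0.07 (adjusted p = 0.0032 and 0.00077). At day 30 it had 326, 294 and 329 CPM on the lesion side and fell by 0.20 ± 0.07 from day 0 (adjusted p = 0.031), a call lost without day 0 replicate 1 or 2 or lesion replicate 2 (0.083, 0.066 and 0.18).

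On the contralateral side at day 30, Hspa5 had 348, 295 and 321 CPM, a difference of -0.18 ± 0.07 (adjusted p = 0.072, and 0.031 without replicate 1). At day 7 its differences from day 0 were -0.17 ± 0.07 and -0.18 ± 0.07 on the lesion and contralateral sides (adjusted p = 0.094 and 0.093). On the lesion side the call was gained without replicate 3, the library with most choroid plexus transcripts (-0.26, adjusted p = 0.014). The sides differed by 0.01, 0.05 and -0.02 at days 7, 14 and 30, each ± 0.07 (adjusted p = 1, 0.76 and 0.97).

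**Figure D2:**
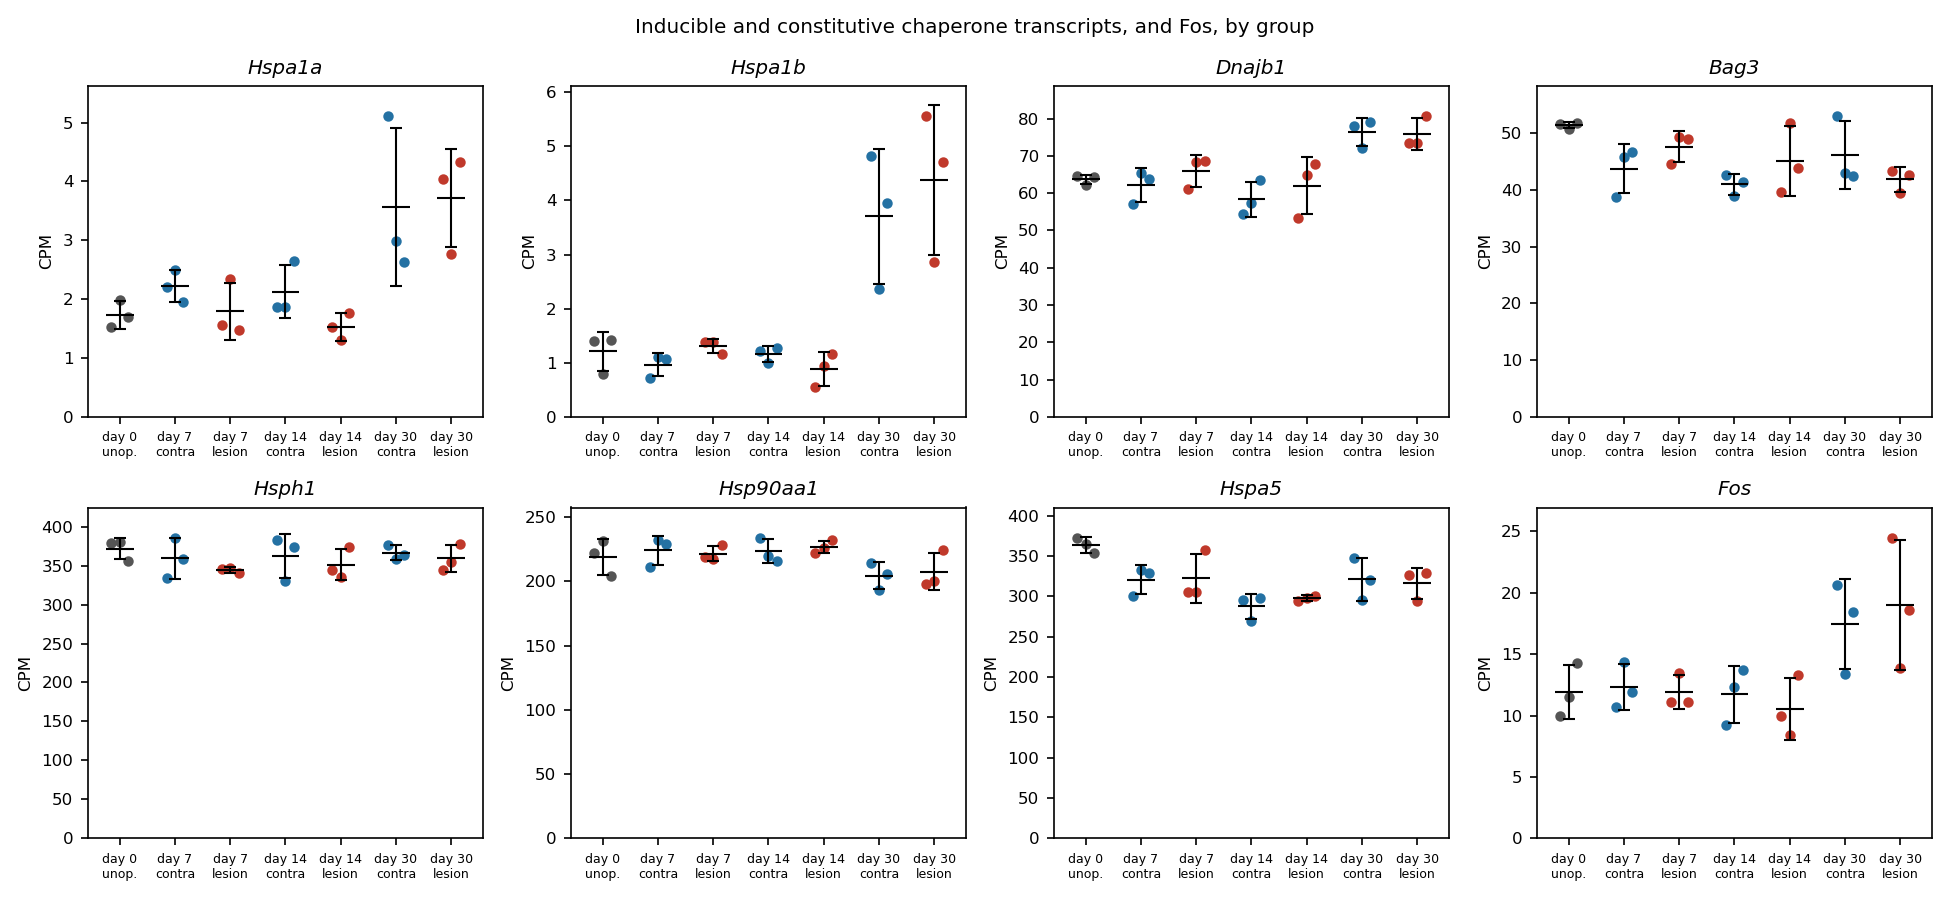
Expression in CPM (y axes, linear from 0) of the other 7 chaperone genes and of Fos by group (x axes); points are libraries, horizontal lines means and bars SD of 3 libraries. Hspa1b and Dnajb1 are higher in all 6 libraries of day 30 than in the other 15, Hspa1a and Fos overlap at the edges, and Hsph1 (330 to 386 CPM) and Hsp90aa1 (193 to 234 CPM) stay in a narrow range.

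Counted together by side, 1 of the 10 members passed the test at day 7 (against 1.65% of all genes tested), 1 at day 14 (3.88%) and 0 at day 30 (1.16%). The call was Hspb1 both times. With the replicate block Hspb8 was called as well at day 7 (adjusted p = 0.032). The median member difference was 0.05, 0.05 and 0.00 at days 7, 14 and 30, beside -0.007, 0.000 and 0.002 over all genes. At day 30, 2 members had an unadjusted p under 0.05 in edgeR, Hspb1 and Hspb8, and DESeq2 and limma-voom called 0 as well. For the difference in lesion effect between days, edgeR called 0 of the 10 members in each of the 3 pairs of days, while 0% (day 14 minus day 7), 0.0807% (day 30 minus day 14) and 0.0269% (day 30 minus day 7) of all genes were called. At an unadjusted p under 0.05 there were 0, 2 and 2 members, and DESeq2 and limma-voom also called 0.

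Against day 0 the counts were larger, as they were over all genes. On the lesion side 2 members were called at day 7 (12.5% of all genes), 3 at day 14 (16.8%) and 8 at day 30 (22.4%). On the contralateral side these were 1 (10.5%), 3 (15.8%) and 4 (16.1%). The 8 calls at day 30 on the lesion side were Hspb1, Hspb8, Dnajb1, Hspa1a and Hspa1b, which rose, and Hspa5, Bag3 and Cryab, which fell. The 4 contralateral ones were Dnajb1, Hspa1a and Hspa1b, which rose, and Cryab, which fell. The median member difference ran from -0.13 to 0.10 over these 6 comparisons, beside -0.027 to -0.012 over all genes.

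From day 7 to day 30, 2 members were called on the lesion side (4.73% of all genes) and 1 on the contralateral side (0.139%). From day 14 to day 30 these were 2 (1.75%) and 3 (0.408%). The 3 were Hspa1b, Dnajb1 and Cryab, and Cryab rose there by 0.33 ± 0.07 (adjusted p = 0.048). That call was lost without any 1 of the 6 libraries (0.11 to 0.21), and limma-voom called none of the 3 (0.062 to 0.076). Few genes changed between contralateral groups of different days, and Hspa1b was among those that did.

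**Figure D3:**
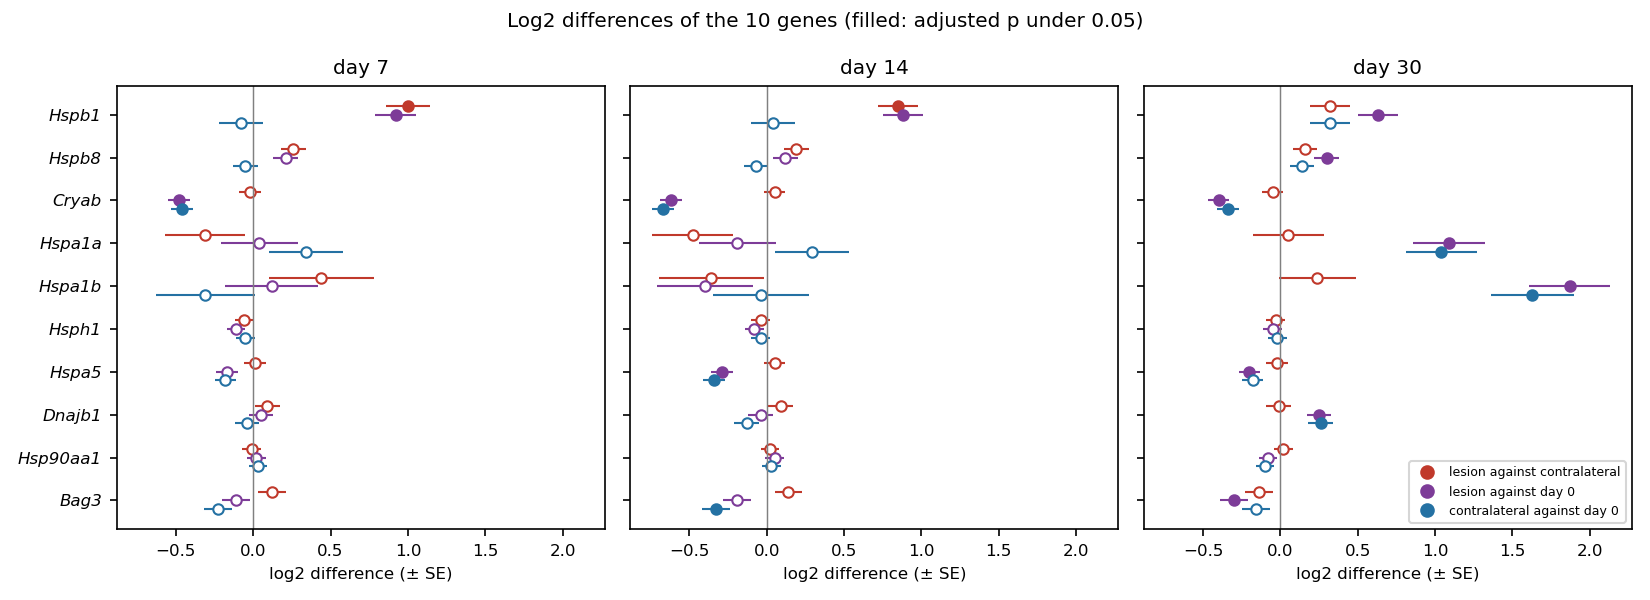
Log2 differences (x axis, ± SE) of the 10 genes (y axis) at days 7, 14 and 30: lesion against contralateral in red, lesion against day 0 in purple and contralateral against day 0 in blue, filled where the adjusted p is under 0.05. Hspb1 is filled in red at days 7 and 14, Cryab is to the left in purple and blue on each day, and Hspa1a and Hspa1b are to the right at day 30 on both sides.

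Across the 21 libraries the log2 CPM of several members moved together, which is given as a description because libraries share group, depth and lane. Pearson r was 0.86 for Hspa1b with Dnajb1, 0.81 for Hspa1a with Hspa1b and 0.78 for Hspb8 with Dnajb1. It was 0.74 for Cryab with Hspa5, 0.73 for Hspa5 with Bag3 and 0.70 for Hspb1 with Hspb8.

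The wider chaperone network was read from 75 other genes, all of which were tested, in 8 lists. The lists also hold genes that are not chaperones, such as Xbp1, Ddit3, Atf4 and the heat shock factor genes. By side, edgeR, DESeq2 and limma-voom called 0 of the 75 genes at days 7 and 30, where edgeR gave 3 and 4 with an unadjusted p under 0.05. At day 14 the same tools called 2 of the 75, both lower on the lesion side, a share no higher than the 3.88% of all genes that edgeR called. Before adjustment edgeR gave 18 of the 75 a p under 0.05 that day, 13 with a positive difference and 5 with a negative one. For the lesion effect of day 30 minus day 14 it gave 18, of which 2 were positive and 16 negative. There a p of 0.037 ranked 2781 among all genes. This comparison subtracts the day 14 effect and uses the same day 14 libraries, so its directions are not independent of those at day 14. Day 14 minus day 7 gave 7 and day 30 minus day 7 gave 3. None of these differences between days was called. Hspa4l, a brain relative of HSP110, stood at 176 ± 10 against 209 ± 7.9 CPM (-0.25 ± 0.07, adjusted p = 0.034), and the J protein gene Dnaja4 at 19.6 ± 1.1 against 24.7 ± 0.71 CPM (-0.34 ± 0.08, adjusted p = 0.02). The median of the 75 genes was 0.07 at day 14 and -0.03 at day 30. The 6 other genes listed by name as small heat shock proteins, Hspb11 included, gave 54 tests by side and against day 0. Of these edgeR called 0, with 12 at an unadjusted p under 0.05, DESeq2 0 and limma-voom 3. The share of all genes at that unadjusted p is not given, so the unadjusted counts are not read as a result about the listed genes. The largest difference by side among these genes at day 7 was that of Hspb2, opposite Cryab (0.76 ± 0.32, adjusted p = 0.52), named after its value was seen. Its level was low, with 0.714 CPM and 43 reads over the day 7 contralateral libraries, against 1.34 CPM at day 0.

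**Figure D4:**
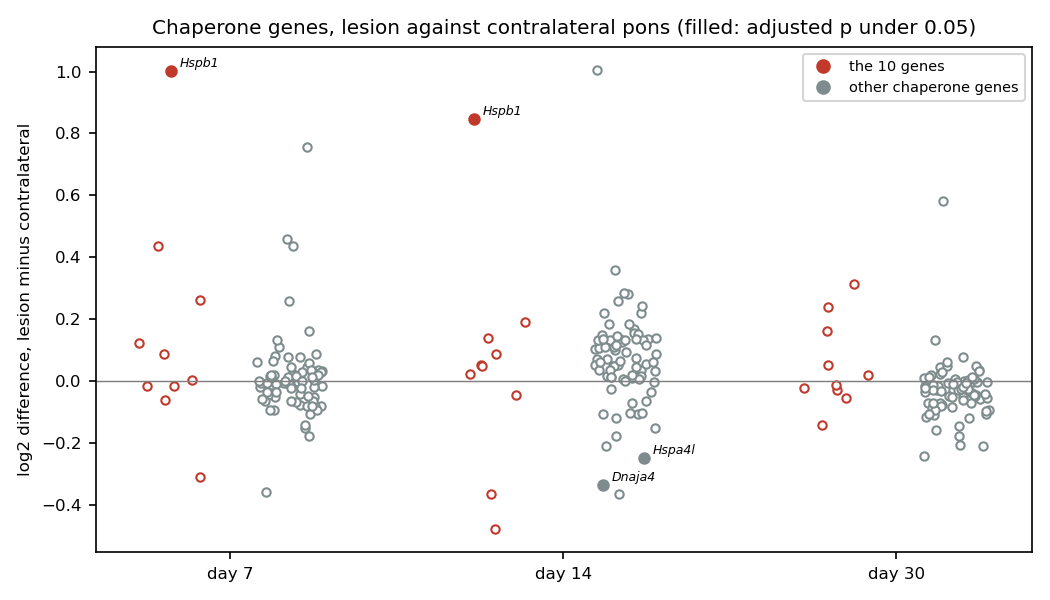
Log2 difference, lesion minus contralateral (y axis), of the 10 genes (red) and of 75 other chaperone genes (grey) at days 7, 14 and 30 (x axis); filled points have an adjusted p under 0.05. Hspb1 is the filled red point at days 7 and 14, and Hspa4l and Dnaja4 are the filled grey points at day 14.

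Against day 0, 14 of the 75 genes rose and 4 fell on the lesion side at day 7, where 8.14% of all genes rose and 4.32% fell. There 14 rose and 12 fell at day 14 (9.78% and 7.03% of all genes) and 13 rose and 23 fell at day 30 (12.7% and 9.69%). On the contralateral side 15 rose and 5 fell at day 7 (6.84% and 3.66%), 14 rose and 18 fell at day 14 (9.09% and 6.73%), and 15 rose and 16 fell at day 30 (9.32% and 6.81%). In all 6 operated groups 13 of the 75 genes rose and 0 fell, while 4.01% of all genes tested rose and 0.987% fell in all 6, and the 6 comparisons share the day 0 libraries. The 13 were the J protein genes Dnaja1, Dnaja2, Dnajb4, Dnajb6 and Dnajb14, the cochaperone genes Bag4, Cacybp, Ptges3 and St13, the genes Canx and Dnajb9 of the endoplasmic reticulum, Hspa13 and the heat shock factor gene Hsf2. These names were picked once their values were known. Ptges3, the HSP90 cochaperone p23, differed most among them, by 0.89 to 1.20.

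Genes of the endoplasmic reticulum stress list went both ways against day 0. The list is not made of chaperones alone, since it also holds Xbp1, Ddit3, Atf4 and Herpud1. Of 16 genes of this list 7 and 9 fell on the lesion and contralateral sides at day 14 (7.03% and 6.73% of all genes). At day 30, 6 and 7 fell (9.69% and 6.81% of all genes). In each group 2 or 3 rose, and over the 6 operated groups 6.84% to 12.7% of all genes rose. Calr, the lectin chaperone calreticulin, fell by 0.24 ± 0.07 and 0.37 ± 0.07 at day 14 (adjusted p = 0.012 and 0.00022), and Hyou1, the exchange factor of BiP, by 0.25 ± 0.06 on each side (0.002 and 0.0024). Dnajb9, a J protein partner of BiP, rose by 0.60 to 0.79 in the 6 groups. All 3 of the HSP90 list (Hsp90ab1, Hsp90b1 and the mitochondrial Trap1) fell at day 30 on both sides, as did 9.69% and 6.81% of all genes. Hsp90aa1 differed there from day 0 by -0.08 ± 0.06 and -0.10 ± 0.06 (adjusted p = 0.38 and 0.3). Hsf1, the gene of the main heat shock factor, fell in 4 of the 6 groups, including both at day 30 (-0.24 ± 0.07 and -0.22 ± 0.07, adjusted p = 0.016 and 0.036).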

How the data were processed

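Per the labels' protocols and the submitters' processing notes, base calling used CASAVA 1.8.2, and the authors mapped single reads of 50 bases to GRCm38.p4 with Rsubread before featureCounts summed them by gene. The strand setting and the treatment of reads with several matches are not given in the sources used here. The deposited table holds raw counts, and a second deposited matrix holds log2 CPM made with voom. Of its 22294 genes, 22269 were matched by symbol and recomputed from the counts with differences of at most 5e-11. Gene lengths are those the authors deposited beside the counts.

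From the counts, the authors' filter was repeated (rows without a count left out, then the lowest 32 percent of the rest by summed count, leaving 22294). Tests used edgeR 4.0.16 in R 4.3.3 with TMM factors, a robust quasi-likelihood fit, 1 coefficient per group and all 21 libraries. P-values are two-sided and adjusted by Benjamini-Hochberg over all genes tested, and a gene is called at an adjusted p under 0.05. An exact test of 3 against 3 libraries cannot go below 0.1. CPM use TMM factors and are given per library or as mean ± SD, and the script was tested on simulated data. Alternatives were DESeq2 1.42.0, limma 3.58.1 with voom, limma on the deposited log2 values, DESeq2 size factors, other filters, only the groups compared, a replicate block, the study's second threshold (absolute log2 change of 1.7) and leaving out each library. Chosen after seeing the data were leaving out both libraries with most choroid plexus transcripts, merging rows that share at least 10% of a member's 50-base stretches, and the comparisons of day 30 with days 7 and 14.

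Lesion and contralateral libraries of a day carry the same replicate numbers in their titles, and no label says that a number marks 1 animal. After removal of group means, same-numbered libraries correlated at 0.167 to 0.273 at day 7, -0.00345 to 0.269 at day 14 and 0.194 to 0.215 at day 30. A pairing was accepted for days 7 and 30, where every pair was above 0.1. It was used only in the replicate block, which also held day 14, and the main tests have no block. With the block, Hspb8 also passed by side at day 7 (0.26, adjusted p = 0.032). All 10 members are named. Other chaperone genes are named where called by side, up to 4 per list and comparison, and like genes are the 3 highest Pearson r per member called by side, with at least 1 CPM on average and no predicted symbol. Names outside this rule were chosen after their values were seen. The members, lists and comparisons were chosen with earlier results of these data known. Promoter windows are 250 bases before to 50 after a start, from RefSeq.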

Additional observations from a re-analysis of the deposited data

How the results depend on the processing

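Of 2640 single-gene values under alternatives, 2574 kept their side of the threshold, 41 calls were lost, 25 were gained and 0 called values reversed. The 2574 include 125 values that were called neither time and changed sign. By side at day 7 the 1 call became 2 with no filter and 2 with the replicate block (Hspb8 added). The pairing behind that block changed no other call by side. At day 14 the calls ran from 1 to 2 with single libraries left out. Against day 0 the day 7 contralateral count of 1 became 2 with no filter (Bag3 added). Apart from a limit on size, the day 7 lesion count of 2 became 3 in 5 settings, the day 30 lesion count of 8 ran from 6 to 8 and the day 30 contralateral count of 4 from 3 to 5. The day 14 counts of 3 ran from 3 to 4 on the lesion side and from 2 to 3 on the other. At an absolute log2 change of at least 1.7, 0 members passed by side at days 7 and 14, 0 passed against day 0 in 5 of the 6 groups, and 1, Hspa1b, did on the lesion side at day 30. From day 7 to day 30 on the lesion side the 2 calls became 1 at that size, 1 without both libraries with most choroid plexus transcripts and 1 to 2 with single libraries left out. Dnajb1 was added there with only the groups compared. On the contralateral side 1 became 2 with no filter, 2 with only the groups compared, 2 with copies merged and 0 to 1 with single libraries left out. With copies merged, Hspa1a and Hspa1b hold the same summed counts. The Hspa1a call added there, counted among those gained, therefore repeats the Hspa1b call. From day 14 to day 30 on the lesion side 2 became 4 with no filter and 1 at the size of 1.7. Dnajb1 was also added there with DESeq2, with edgeR's own filter and without day 14 lesion replicate 3. On the contralateral side 3 became 0 with limma-voom, 0 without both choroid plexus libraries, 0 at that size and 0 to 1 with single libraries left out. The count was 2 with the deposited log2 values (Cryab lost) and 4 with no filter (Hspa1a added). It was also 4 with copies merged, where the added Hspa1a again repeats Hspa1b. The cause of these changes was not tested, except that leaving libraries out lowers their number. Hspa1a and Hspa1b had the lowest counts of the members, with as few as 27 and 11 reads in a library.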
